A study of Mus musculus with 6 samples.

Results

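The extracellular matrix and its receptors were examined in the cortex of mouse embryos with a conditional knockout of Hdac1 and Hdac2. Members were taken by gene symbol, and the set was proposed with earlier results of these data known: collagens, laminins, integrins, the basement membrane proteins nidogen, perlecan and agrin, fibronectin and fibrillins, and the proteoglycans decorin, lumican, biglycan, lecticans, glypicans and syndecans. It holds 66 of the 12041 symbols in the table. The pattern also takes 4 symbols that are not matrix or integrin genes: Col4a3bp, a ceramide transfer protein, and the integrin-binding Itgb1bp1, Itgb1bp2 and Itgb3bp. None of the 4 was called, and all are counted with the members but left out of the descriptions by class. Nid2, Vcan, Tnc, Gpc5, Sparc and Col4a1 were not analysed here.

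Bulk RNA sequencing covered 3 wild type (WT) libraries and 3 libraries of a conditional knockout (cKO) that removes Hdac1 together with Hdac2, all of strain C57BL/6 at embryonic day 12.5. The sample labels name cortex as the tissue, and the series' design text speaks of forebrain. The sources used here do not name the promoter that drives the recombinase, the deleted exons or the litters. They also do not say whether the replicates are different embryos. The p-values therefore measure the spread between these libraries alone, which may be technical. Libraries are called by their column names, HC-1, HC-8, HC-10 for WT and HM-5, HM-13, HM-16 for cKO, with HC read as control and HM as mutant. Values of 3 libraries always follow this order.

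Basement membranes are sheets of laminin and type IV collagen networks, joined by nidogen and by the heparan sulfate proteoglycans perlecan and agrin. In the embryonic cortex such a sheet lies under the meninges at the pial surface, where the end feet of radial glia attach through integrins and dystroglycan, and others surround blood vessels. Fibrillar collagens are mainly products of meningeal and perivascular mesenchyme, whereas glypicans and syndecans are cell surface proteoglycans whose heparan sulfate chains bind growth factors such as FGFs and Wnts. In bulk tissue, a change in the number of cells of a type and a change in RNA per cell cannot be told apart.

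The labels were checked on the targeted genes. Hdac1 had 212, 197 and 193 FPKM (fragments per kilobase of transcript, scaled to sequencing depth) in the WT libraries against 45.5, 61.0 and 47.4 FPKM in the cKO libraries. Hdac2 was at 23.6% of its WT mean, with 134, 216 and 272 FPKM in WT against 37.6, 61.7 and 47.5 in cKO. Among the WT libraries, HC-1 had the lowest Hdac2. Within the cKO group both transcripts were highest in HM-13, and 29.7% of its reads were assigned to Rn45s, a ribosomal RNA precursor, where the remaining libraries had 0.506% to 2.48%. Recovered reads totalled 9712556 to 11922665 per library with Rn45s counted. HM-13 had 11473715, of which 3406075 were Rn45s. Markers of cortical progenitors and neurons were present, with Emx1 at 147 to 201 FPKM and Sox2 at 248 to 349 FPKM. Other cells were in the tissue as well: the summed FPKM of 10 meningeal and mesenchymal markers was 34.1 to 58.5 in WT and 35.3 to 47.7 in cKO, and that of 6 endothelial markers 64.6 to 121 and 90.0 to 121.

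Of the 66 members, 53 were at 1 FPKM or more in 3 or more libraries and were tested. All 53 reached it in at least 1 library of each group. In limma's test over all 9359 genes, 5 members rose in the cKO and 0 fell at an adjusted p under 0.05. In either direction, 18% of all genes were called. The 5 were the laminin chains Lama5 and Lama1, the collagen Col11a1, the glypican Gpc1 and the syndecan Sdc4. The share that rose (9.43%) was close to that of all genes tested, 9.62%, while 8.39% of all genes tested fell. Before adjustment, 13 of the 53 members were higher and 1 lower at p under 0.05, where 17.3% of all genes tested were higher and 16.9% lower. With limma's voom on recovered reads, 7 of the 53 members rose and 0 fell, beside 11.2% and 9.26% of all genes.

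Most members leaned one way by a small amount. The log2 fold change was above 0 for 46 of the 53 (86.8%), against 48.8% of all genes tested, and its median was 0.24 against -0.01. The range ran from -0.35 (Col12a1) to 1.03 (Lama5). The 3 cKO values lay above the 3 WT values for 10 tested members (18.9%), a share close to the 19.5% of all genes tested. They lay below for 1 tested member, Col12a1, where 19.6% of all genes did so. The 10 were Lama5, Lama1, Lamb2, Agrn, Col11a1, Col22a1, Col7a1, Gpc1, Sdc3 and Sdc4 (Col12a1, Col22a1 and Col7a1 fall outside the rule for names and were chosen with their values known).

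**Figure D1:**
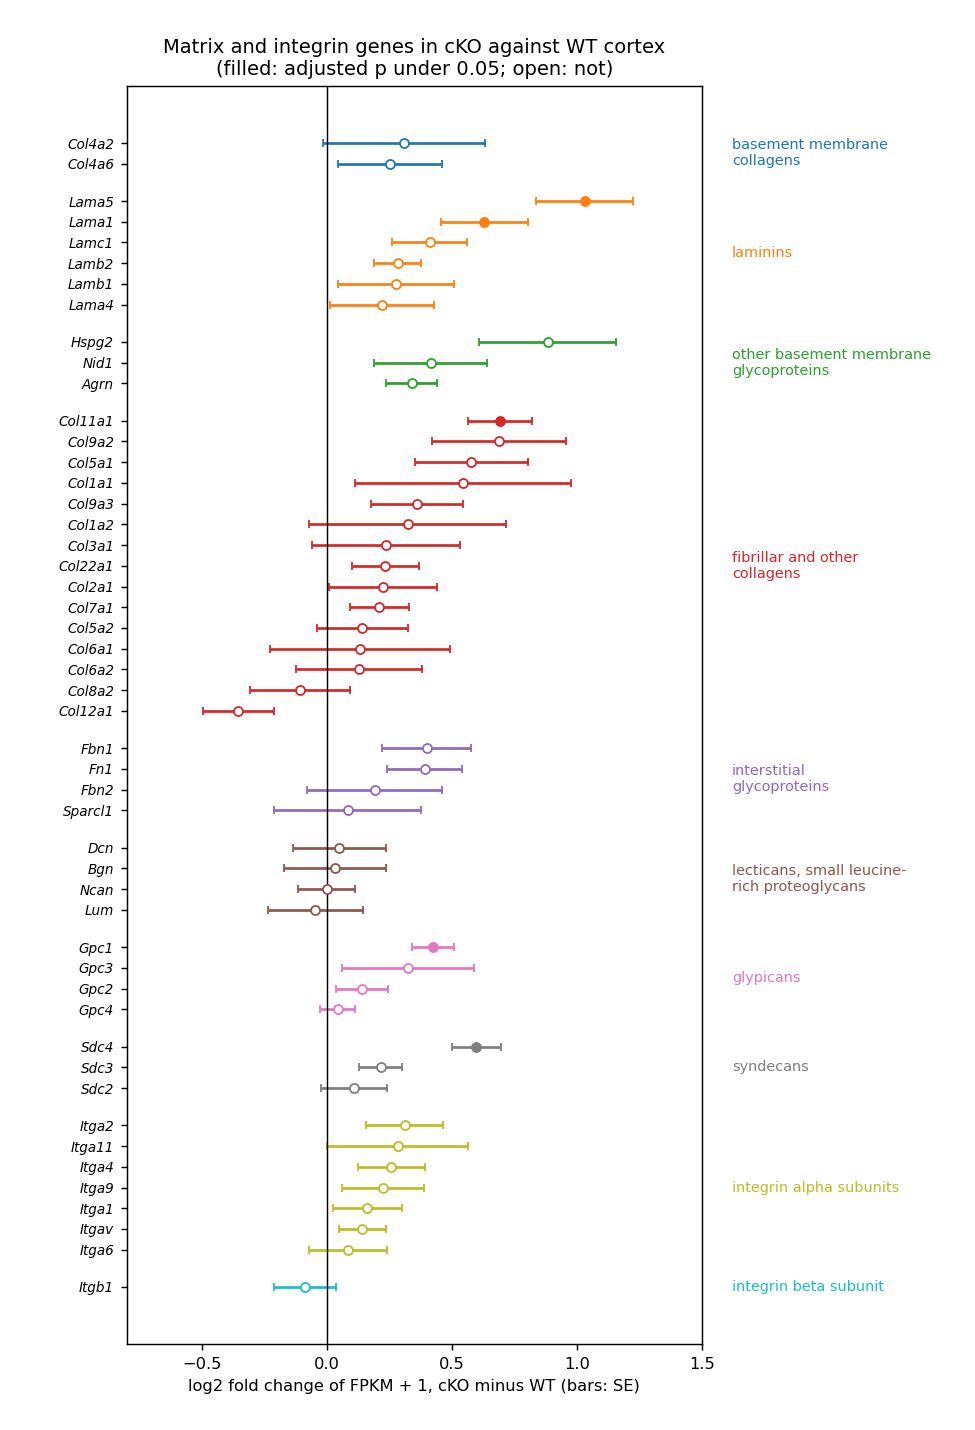
Log2 fold change of FPKM + 1 (cKO minus WT, x axis) with its standard error for the 49 tested matrix and integrin genes, ordered by class. Filled points passed limma's test at an adjusted p under 0.05 (5 genes) and open points did not. The laminins and basement membrane proteins lie to the right of 0, and the lecticans and small leucine-rich proteoglycans lie close to 0.

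The promoters of 3 of the 5 genes that rose are shown because the results turn on these genes. Each line gives the 250 bases before the RefSeq start nearest to the deposited transcript (GRCm38.p6), 5′ to 3′ on the gene's strand. Capitals mark each GC box, GGGCGG or its reverse complement CCGCCC, the core of the sites bound by Sp-family factors. Lama5 lies at chr2:180225860-180226109 (minus strand), Col11a1 at chr3:114030290-114030539 (plus strand) and Sdc4 at chr2:164443189-164443438 (minus strand). The Sdc4 window lies inside the outer bounds of the gene, which start further upstream. No window of this kind is given for Lama1 and Gpc1.
Lama5: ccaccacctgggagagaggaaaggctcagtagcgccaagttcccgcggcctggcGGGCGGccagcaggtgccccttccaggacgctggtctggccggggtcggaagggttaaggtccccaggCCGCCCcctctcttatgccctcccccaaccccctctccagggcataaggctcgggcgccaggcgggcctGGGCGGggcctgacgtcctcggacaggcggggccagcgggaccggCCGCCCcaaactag
Col11a1: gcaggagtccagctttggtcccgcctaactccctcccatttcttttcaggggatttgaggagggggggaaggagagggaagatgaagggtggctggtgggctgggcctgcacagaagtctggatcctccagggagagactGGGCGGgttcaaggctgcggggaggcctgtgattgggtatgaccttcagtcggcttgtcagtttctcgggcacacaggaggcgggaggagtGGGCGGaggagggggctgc
Sdc4: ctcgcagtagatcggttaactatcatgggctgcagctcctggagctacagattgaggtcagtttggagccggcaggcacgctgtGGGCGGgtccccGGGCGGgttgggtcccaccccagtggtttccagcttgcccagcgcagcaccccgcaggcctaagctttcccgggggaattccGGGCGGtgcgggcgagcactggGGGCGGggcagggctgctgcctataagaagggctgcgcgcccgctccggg

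The windows held 4 GC boxes for Lama5, 2 for Col11a1 and 4 for Sdc4. Such a box is common. It was found in 27 of the 39 members with a window (69.2%), in 60.7% of the windows of all tested genes and in 32.7% of the 32851 windows in the RefSeq table. These sets are not alike. Each member has a single window, untested members included, whereas the tested genes have 7373 windows for 6267 genes. The TATA box TATAAA, searched on both strands, was in 2 of the 39 members' windows, against 5.75% of the windows of tested genes. A match describes the sequence and is not a binding site.

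The laminins were the class with the most calls. Laminins are heterotrimers of an alpha, a beta and a gamma chain, and the alpha chain carries the main receptor-binding domains. Of the 6 tested, 2 alpha chains rose, Lama5 and Lama1, and all 6 had a log2 fold change above 0 (0.22 to 1.03). Lama5 (chromosome 2, 180176373 to 180225859, GRCm38), the alpha chain of laminins found in most epithelial and vascular basement membranes, had 2.46, 2.69 and 1.67 FPKM in the WT libraries. In the cKO libraries it had 6.50, 4.17 and 6.51 FPKM. The groups did not overlap, and the cKO mean was 2.52-fold the WT mean (2.28 ± 0.53 and 5.73 ± 1.35 FPKM, SD, n = 3 each; log2 fold change 1.03, SE 0.19, adjusted p = 0.0130). These values rest on 203 to 837 reads per library.

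Lama1 (chromosome 17, 67697259 to 67822647), the alpha chain of the first laminin made in the embryo and a component of the pial basement membrane, was the more abundant of the pair. It had 17.2, 12.99 and 11.95 FPKM in the WT libraries against 24.4, 17.4 and 25.2 FPKM in the cKO libraries. HM-13 lay just above HC-1, the highest WT library, and far below the other cKO libraries. The cKO mean was 1.59-fold the WT mean (14.1 ± 2.79 and 22.3 ± 4.28 FPKM; log2 fold change 0.63, SE 0.17, adjusted p = 0.0441). Lama5 lost its call when either HM-5 or HM-16 was left out (adjusted p up to 0.0617). Lama1 lost its call when HC-8, HC-10, HM-5 or HM-16 was left out (adjusted p up to 0.151). Its call was also lost with quantile normalization and with FPKM rescaled to equal library totals. Those totals include Rn45s, at 67970 FPKM in HM-13 and 845 to 3989 FPKM in the remaining libraries.

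The beta and gamma chains that pair with them did not pass limma's test. By the authors' deposited FDR, Lamc1 (0.00866) and Lamb2 (0.0266) were higher under 0.05, and Lamb1 (0.690) was not. Lamc1, the gamma chain of most laminins, had 38.5, 31.5 and 28.9 FPKM in WT against 45.8, 35.7 and 51.4 in cKO (adjusted p = 0.0990). Lamb2 had 30.2, 31.9 and 27.9 FPKM in WT against 37.6, 32.5 and 40.4 in cKO, with no overlap (log2 fold change 0.28, SE 0.095, adjusted p = 0.0778). In each of them HM-13 was the lowest cKO library. Lamb1 and the vascular alpha chain Lama4 were at 117.6% and 115.2% of their WT means.

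The proteins that bind laminin and collagen IV into a sheet leaned the same way without passing limma's test. Hspg2, which encodes perlecan, had 10.8, 9.02 and 5.87 FPKM in the WT libraries against 20.2, 10.7 and 19.6 FPKM in the cKO libraries (it was named after its values were seen). HM-5 and HM-16 were above every WT library, while HM-13 lay within the WT range. The cKO mean was 1.96-fold the WT mean (log2 fold change 0.88, SE 0.27, adjusted p = 0.0623). Agrn, the heparan sulfate proteoglycan agrin, had 32.0, 30.5 and 26.9 FPKM in WT against 40.8, 33.4 and 40.0 in cKO, with no overlap (log2 fold change 0.34, SE 0.10, adjusted p = 0.0549). Nid1, the link protein nidogen-1, was at 15.3 ± 5.39 and 20.1 ± 3.46 FPKM (n = 3 each; limma adjusted p = 0.239). Hspg2 and Agrn passed with voom (adjusted p = 0.0377 and 0.0339) and without HM-13 (0.0167 and 0.0223). By the authors' deposited FDR, Agrn was under 0.05 (0.00670) and Hspg2 was not (0.0526).

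The type IV collagen chains tested, Col4a2 and Col4a6, showed no call, and other chains such as Col4a1 were not analysed here. Col4a2 had 85.3, 39.8 and 38.9 FPKM in WT against 63.8, 47.1 and 84.7 in cKO (log2 fold change 0.31, SE 0.32, adjusted p = 0.541). HC-1 was as high as the highest cKO library, and the groups overlapped. Col4a6 had a log2 fold change of 0.25 (SE 0.21), and Col18a1, the precursor of endostatin, reached at most 0.964 FPKM and was not tested.

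**Figure D2:**
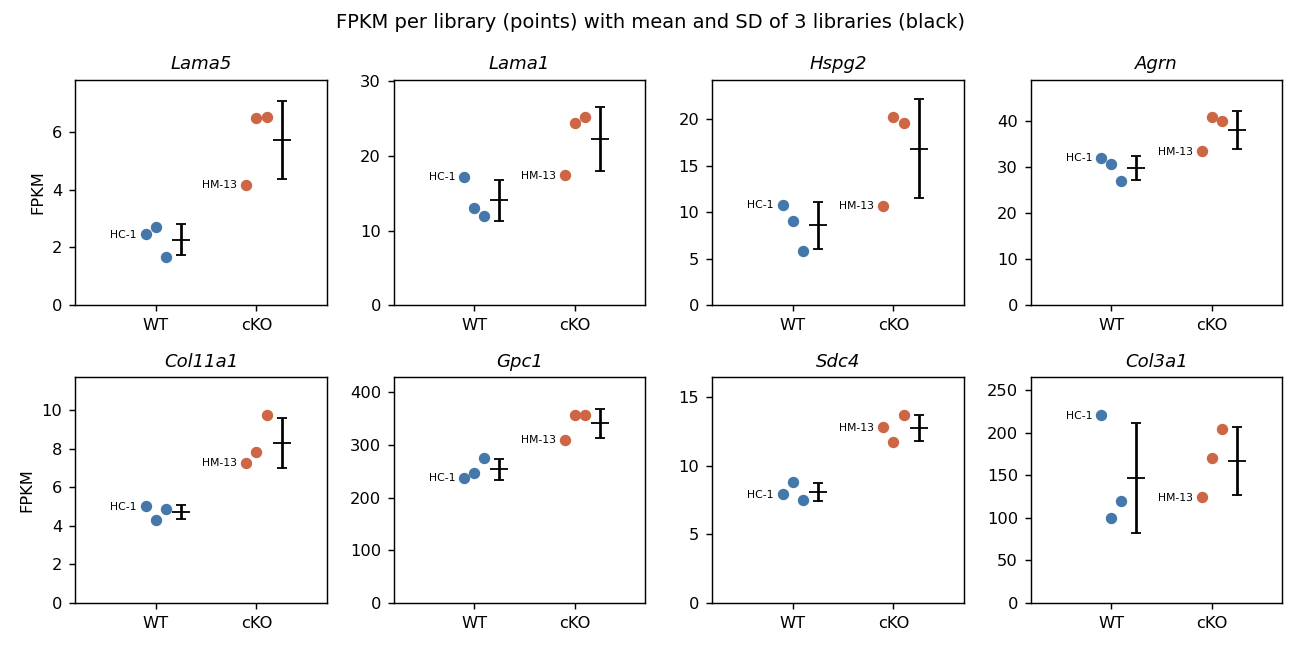
FPKM (y axis, linear from 0) in each library for 8 members, with WT in blue and cKO in orange, and the mean and SD of 3 libraries in black. HC-1 and HM-13 are labelled. For Lama5, Lama1, Agrn, Col11a1, Gpc1 and Sdc4 all cKO points lie above all WT points. HM-13 lies just above WT for Lama1 and Agrn and within the WT range for Hspg2. HC-1 is the highest library for Col3a1.

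Among the other collagens 1 of 15 tested rose and 0 fell. Col11a1 (chromosome 3, 114030540 to 114220718) encodes a minor fibrillar chain that nucleates collagen fibrils. It had 5.02, 4.30 and 4.85 FPKM in the WT libraries against 7.82, 7.28 and 9.75 FPKM in the cKO libraries. Every cKO library was above every WT library, HM-13 included. The cKO mean was 1.75-fold the WT mean (4.72 ± 0.38 and 8.28 ± 1.30 FPKM; log2 fold change 0.69, SE 0.13, adjusted p = 0.0126), and the call held whichever of the 6 libraries was left out. It was lost with library totals as scaling (adjusted p = 0.0515).

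The abundant fibrillar collagens varied more between libraries of a group than between the groups. Col3a1, the most abundant collagen in the set and a ligand of the cortical receptor GPR56, had 221, 100 and 120 FPKM in the WT libraries against 171, 125 and 205 FPKM in the cKO libraries. Col1a2 had 65.9, 23.8 and 25.8 FPKM in WT against 52.4, 29.3 and 52.7 in cKO. In both, HC-1, HM-5 and HM-16 were high and the other libraries low, and the groups overlapped (adjusted p = 0.613 and 0.604). Col1a1, the partner chain of Col1a2 in type I collagen, followed the same order of high and low libraries, with 19.6 to 58.55 FPKM in WT and 27.1 to 56.95 FPKM in cKO (adjusted p = 0.412; named after its values were seen).

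A cartilage-type chain and a regulatory chain had larger estimates without passing limma's test, and both names were chosen with their values known. Col9a2, a chain of the fibril-associated type IX collagen, had 7.84, 5.20 and 4.17 FPKM in WT against 11.8, 6.34 and 11.6 in cKO (log2 fold change 0.69, SE 0.27, adjusted p = 0.114). Col5a1, which sets fibril diameter, had 24.1, 14.8 and 14.2 FPKM in WT against 28.4, 20.05 and 31.5 in cKO (adjusted p = 0.116). Col12a1, which coats type I fibrils, was the 1 tested member with all cKO values below WT: 1.84, 1.27 and 1.64 FPKM against 1.19, 0.743 and 1.14 FPKM (log2 fold change -0.35, SE 0.14, adjusted p = 0.125).

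None of the 4 tested interstitial glycoproteins passed limma's test, and 1 had an unadjusted p under 0.05. Fn1, fibronectin, had 2.40, 1.86 and 1.67 FPKM in WT against 3.26, 2.32 and 3.15 in cKO (adjusted p = 0.110). The microfibril proteins Fbn1 and Fbn2 had log2 fold changes of 0.40 (SE 0.18) and 0.19 (SE 0.27), and Sparcl1, an astrocyte and vessel matricellular protein, had 0.08 (SE 0.29). The names Fn1 and Fbn1 were chosen with their values known.

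None of the 4 secreted proteoglycans tested passed limma's test or had an unadjusted p under 0.05. The lectican Ncan (neurocan), a brain chondroitin sulfate proteoglycan, had 46.8, 54.8 and 63.4 FPKM in WT against 53.0, 59.3 and 51.7 in cKO (log2 fold change 0.00, SE 0.11). The small leucine-rich proteoglycan Lum (lumican), a mesenchymal product, had 89.9, 53.8 and 61.8 FPKM in WT against 66.8, 55.1 and 73.8 in cKO. Its highest library was the WT library HC-1 (log2 fold change -0.05, SE 0.19). The log2 fold changes of the 4 members tested lay between -0.05 and 0.05. Bcan (brevican), another brain lectican, was below the minimum and was not tested. It had 0.408, 0.0721 and 0.230 FPKM in WT against 0.785, 0.426 and 0.929 in cKO, on 3 to 32 reads per library. Of the 13 members not tested, 6 had a higher mean in cKO and 7 a lower mean.

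The cell surface heparan sulfate proteoglycans gave the other calls. Of 4 glypicans tested, 1 rose. Gpc1 (chromosome 1, 92831645 to 92860779), a glypican of the embryonic brain and a modulator of FGF signalling, was the most abundant member of the whole set. It had 238, 248 and 276 FPKM in the WT libraries against 357, 310.0 and 356 FPKM in the cKO libraries. The groups did not overlap, and the cKO mean was 1.34-fold the WT mean (254 ± 19.9 and 341 ± 27.0 FPKM; log2 fold change 0.42, SE 0.08, adjusted p = 0.0157). These values rest on 9486 to 14342 reads per library. Leaving out HM-5 or HM-16 ended the call (adjusted p up to 0.0720), as did library totals (adjusted p = 0.114).

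The next glypican in abundance differed little between the groups. Gpc4 had 76.9, 80.5 and 77.9 FPKM in WT against 85.3, 73.9 and 83.9 in cKO (log2 fold change 0.04, SE 0.07, adjusted p = 0.697). Gpc2 and Gpc3 were at 1.11-fold and 1.25-fold the WT mean without passing, and Gpc6 reached at most 0.564 FPKM. The deposited transcripts of Gpc2 and Gpc6 used here are annotated as retained introns.

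Of 3 syndecans tested, 1 rose. Sdc4 (chromosome 2, 164424247 to 164443887), the syndecan of focal adhesions and a coreceptor for fibronectin, had 7.92, 8.80 and 7.52 FPKM in the WT libraries against 11.75, 12.8 and 13.7 FPKM in the cKO libraries. All cKO libraries were high, and HM-13 was the middle one. The cKO mean was 1.58-fold the WT mean (8.08 ± 0.66 and 12.7 ± 0.97 FPKM; log2 fold change 0.60, SE 0.10, adjusted p = 0.00838), the smallest adjusted p among the members. The call held whichever of the 6 libraries was left out and was lost with library totals (adjusted p = 0.0588).

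The neuronal syndecan Sdc3 had 21.4, 19.5 and 23.8 FPKM in WT against 25.1, 25.8 and 24.5 in cKO. The groups did not overlap and lay close together (log2 fold change 0.22, SE 0.09, adjusted p = 0.122). Sdc2 had a log2 fold change of 0.11 (SE 0.13), and Sdc1 reached at most 0.418 FPKM.

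The integrins, which link the matrix to the actin cytoskeleton as alpha-beta dimers, gave no call in limma's test, with 0 of 8 tested subunits at an unadjusted p under 0.05. The partner of most alpha chains, Itgb1, had 6.17, 4.58 and 5.44 FPKM in WT against 5.10, 4.62 and 5.27 in cKO (log2 fold change -0.09, SE 0.12, adjusted p = 0.661). The most abundant alpha chain was Itgav, a receptor for fibronectin and vitronectin, with 14.3, 12.87 and 12.96 FPKM in WT against 15.8, 13.35 and 15.5 in cKO (adjusted p = 0.331). The mesenchymal collagen receptor chain Itga11 followed the fibrillar collagens across libraries, with 6.70, 2.85 and 2.81 FPKM in WT against 5.05, 3.86 and 5.92 in cKO. The 7 tested alpha chains had log2 fold changes between 0.08 and 0.31. Itgb3, Itgb7, Itgb8 and Itgae reached at most 0.722, 0.532, 0.3985 and 0.441 FPKM and were not tested. The collagens Col20a1 (0.695), Col27a1 (0.347), Col6a3 (0.204) and Col6a6 (0.225) were not tested either. The deposited transcripts of Itgb8, Itgae and Col27a1 used here are annotated as retained introns.

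HC-1 and HM-13 stood at the edge of their groups for many members. HC-1 was the highest WT library for 39 of the 53 tested members (73.6%), against 39.1% of all genes tested. HM-13 was the lowest cKO library for 43 members (81.1%), against 41.9% of all genes. The summed FPKM of the 19 collagens outside basement membranes was 450, 212 and 236 in the WT libraries against 389, 259 and 433 in the cKO libraries. The summed FPKM of the meningeal and mesenchymal markers took a like course, with 58.5, 34.1 and 36.6 in the WT libraries and 45.6, 35.3 and 47.7 in the cKO libraries. HC-1 was the highest WT library for 8 of the 10 markers in the table, none of the 10 was at 0 in all libraries, and 0 of 8 tested passed limma's test or an unadjusted p of 0.05. The endothelial markers gave 121, 64.6 and 70.8 in WT and 95.8, 90.0 and 121 in cKO, with 0 of 4 tested passing limma's test and 0 at an unadjusted p under 0.05. The microglial markers summed to 51.1 to 62.7 in WT and 69.1 to 81.0 in cKO, and 2 of 6 tested rose. The part of these cells in the members' levels was not tested.

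The glypicans as a sum took another course, which was that of Gpc1. They summed to 350, 360 and 385 FPKM in the WT libraries and to 478, 421 and 479 FPKM in the cKO libraries, with HC-1 the lowest library of all. Without Gpc1 the sums were 112, 112 and 108 FPKM in WT against 121, 111 and 123 in cKO, and the groups overlapped. Gpc3 and Sdc2 had HC-1 as their highest WT library, as the collagens did. The laminins lay between the patterns: 133, 101 and 98.3 FPKM in WT against 150, 122 and 165 in cKO.

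**Figure D3:**
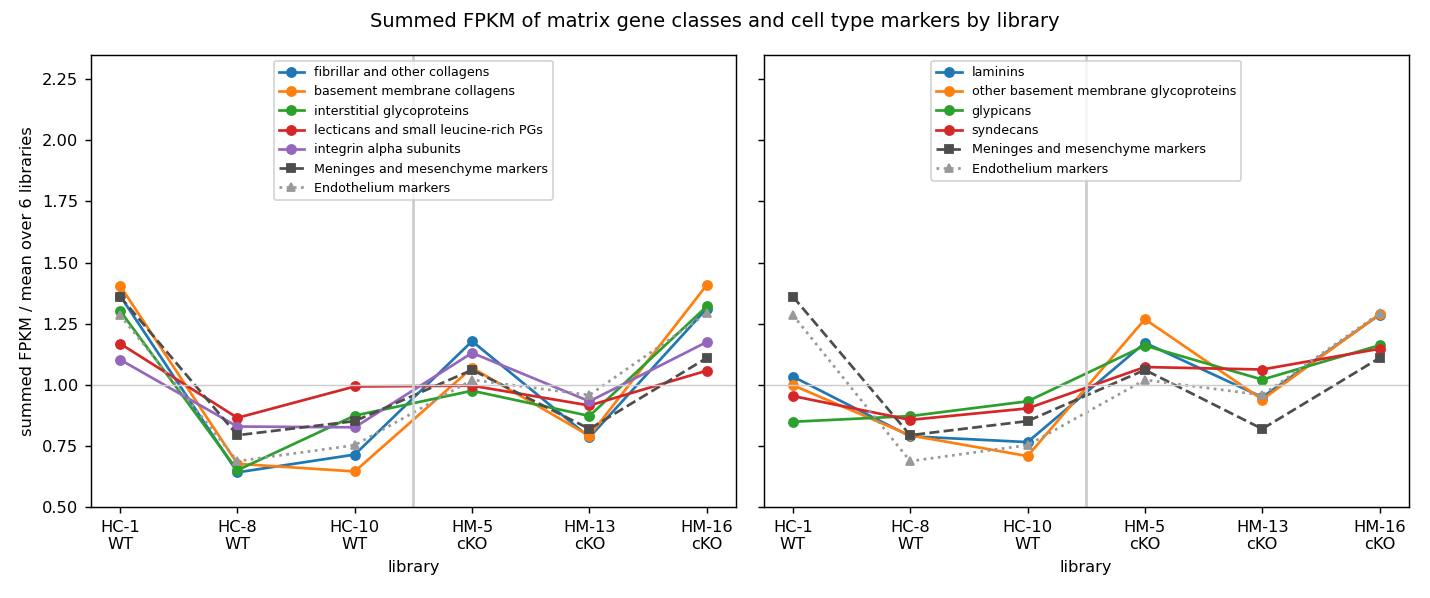
Summed FPKM of each class of members in each library, divided by the mean of the 6 libraries (y axis), with WT at the left of the grey line and cKO at the right. Dashed and dotted grey lines are the summed meningeal and mesenchymal markers and the summed endothelial markers, drawn in both panels. Collagens, interstitial glycoproteins and these markers are high in HC-1 and HM-16, whereas the sums of glypicans, most of which is Gpc1, and of syndecans are higher in each cKO library than in each WT library.

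Leaving out HM-13 raised the number of members that rose from 5 of 53 tested to 11 of 52, with 0 lower. The background in that fit was 10.5% of genes higher and 8.9% lower. The 6 added members were Hspg2, Agrn, Lamb2, Lamc1, Col9a2 and Col9a3. The laminin chains Lamb1 and Lama4 were tested there too and were not called. In that fit Lama5 had a log2 fold change of 1.21 (adjusted p = 0.00716), Lama1 of 0.79 (adjusted p = 0.0170) and Gpc1 of 0.49 (adjusted p = 0.0117). Leaving out HC-1 gave 7, with Col5a1 and Nid1 added, where 1103 of 9220 genes were called in either direction. Leaving out HM-5 or HM-16 left 2, Col11a1 and Sdc4. Calls over all genes dropped in those fits as well, to 511 of 9140 without HM-5 and 545 of 9145 without HM-16. With all libraries 1685 of 9359 genes were called. HM-13 differs from the other cKO libraries both in ribosomal RNA and in Hdac1 and Hdac2 level, and the part of either in its position was not tested. By the FDR in the authors' deposited table, 11 of the 66 members were higher under 0.05 and 1, Col12a1, was lower. Not all 66 have an FDR there. Of the symbols with an FDR, 11.5% were higher and 9.43% lower. The 11 were the 5 that rose in limma's test and Agrn, Lamb2, Lamc1, Col9a2, Fn1 and Fbn1.

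**Figure D4:**
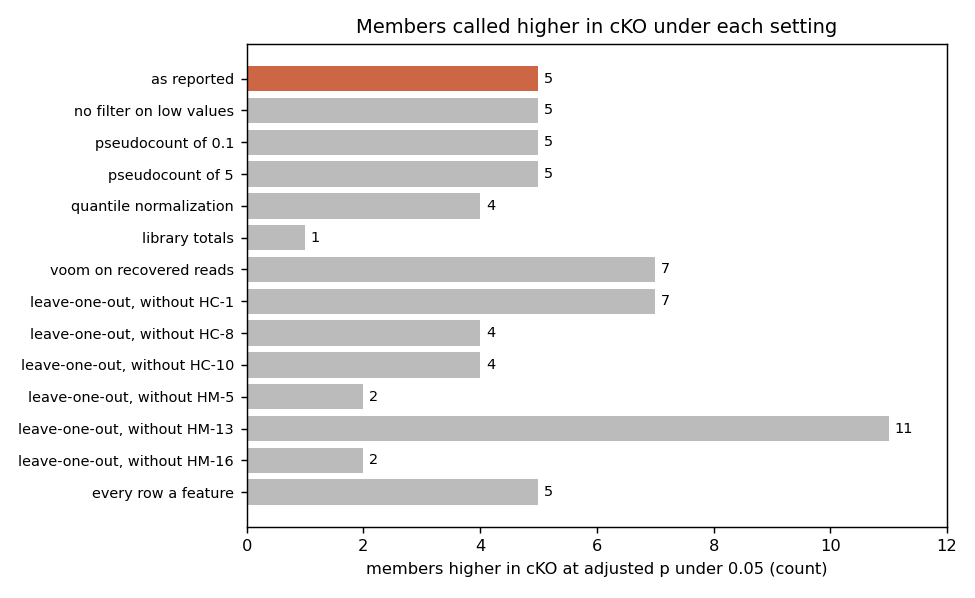
Number of members that rose in cKO at an adjusted p under 0.05 (x axis) for the fit as reported and for each alternative setting. The count is 5 as reported, 1 with library totals, 2 without HM-5 or HM-16 and 11 without HM-13.

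Enzymes and partners of the matrix outside the members were examined in 7 lists of 229 genes, of which 106 could be tested. Of these 10 rose and 9 fell, counting 2 genes, Hapln4 and Hs3st3a1, that met the FPKM minimum in 1 group alone. Heparan sulfate enzymes changed in both directions, with 1 of 15 tested higher and 2 lower. Hs6st1, which adds 6-O-sulfate to the chains of glypicans and syndecans, had 27.2, 31.3 and 26.6 FPKM in WT against 53.0, 42.8 and 59.3 in cKO (1.82-fold, adjusted p = 0.00611). The 3-O-sulfotransferase Hs3st3a1 had 1.29, 1.68 and 1.91 FPKM in WT against 0.360, 0.384 and 0.217 in cKO, 19.7% of WT (adjusted p = 0.00441). It met the FPKM minimum through the WT libraries alone, so a fall was favoured by the filter. With no filter its adjusted p was 0.00354. Its near-copy Hs3st3b1 fell to 41.5% of WT (adjusted p = 0.0487, lost in 5 of 6 leave-one-out fits). The Hs3st3b1 call was also lost with no filter, with a pseudocount of 5, with library totals and with every row as a feature. Reads of this pair may be shared, since their sulfotransferase domains are nearly identical.

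Matrix proteases also went both ways, with 3 of 20 tested higher and 2 lower. The membrane-anchored Mmp17 rose from 9.36 ± 0.30 to 25.3 ± 3.63 FPKM (2.70-fold, adjusted p = 0.00109), Mmp15 rose 1.54-fold (lost when HM-5 or HM-16 was left out) and the versican-cleaving Adamts20 rose from 3.66 ± 0.93 to 8.57 ± 0.35 FPKM (2.345-fold). Mmp14, the membrane collagenase that activates Mmp2, dropped to 57.9% of its WT mean (68.5 ± 5.86 and 39.6 ± 2.04 FPKM, adjusted p = 0.00190). Adamts19 fell to 43.9% of WT (named after its value was seen, and lost in 5 of 6 leave-one-out fits). All cKO values lay outside the WT range for these 5 genes. Library totals as scaling also ended the calls of Mmp15 and Adamts19.

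Enzymes of collagen folding gave 1 rise and 2 falls among 15 tested. The collagen lysyl hydroxylase Plod1 rose from 8.36 ± 2.09 to 14.8 ± 2.41 FPKM (1.77-fold), the procollagen enhancer Pcolce2 fell to 44.8% of WT (adjusted p = 0.00397) and the prolyl hydroxylase family member P3h3 to 74.5% (adjusted p = 0.0494). Plod1 and P3h3 lost their calls in 4 and 5 of the 6 leave-one-out fits, and both with library totals. P3h3 also lost its call with no filter, with a pseudocount of 0.1 or 5 and with every row as a feature.

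Of 24 other matrix glycoproteins and receptors tested, 2 rose and 2 fell. Frem2, a protein of the epithelial basement membrane, rose from 1.603 ± 0.40 to 4.39 ± 1.104 FPKM (2.74-fold) and the testican Spock2 rose 1.73-fold. Eln, elastin, fell from 7.71 ± 2.60 to 3.46 ± 0.40 FPKM (44.9% of WT) and Thbs3, a thrombospondin, fell to 80.5% of WT. Frem2, Eln and Thbs3 lost their calls when HM-5 or HM-16 was left out (highest adjusted p = 0.0533, 0.0721 and 0.0658), and Thbs3 also with library totals (0.284).

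In the hyaluronan list 1 of 10 rose and 1 fell: the link protein Hapln4 had at most 0.241 FPKM in WT and 2.14 to 3.50 FPKM in cKO, and the hyaluronidase Hyal1 fell to 61.7% of WT. Hapln4 met the FPKM minimum through the cKO libraries alone, which favoured a rise, and its adjusted p with no filter was 0.00108. The chondroitin sulfate list gave 1 rise among 6, the dermatan sulfate epimerase-like Dsel (1.59-fold), and the intracellular partners of integrins 1 among 16, Git1 (1.29-fold). Dsel and Hyal1 lost their calls in 4 and Git1 in 5 of the 6 leave-one-out fits. Each was also lost with library totals, and Hyal1 did not pass by the authors' deposited FDR (0.0524). Over the 7 lists, the 10 higher and 9 lower of 106 tested stand beside 9.62% and 8.39% of all genes tested.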

How the data were processed

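One deposited table was used, with 14379 rows for 6 libraries of embryonic mouse cortex. Per the submitters' processing notes, the build was mm10 and the tools were DESeq2 1.22.1, featureCounts 1.6.1, STAR 2.5.4b, bcl2fastq 1.8.4 and R 3.4.1. The sources used here do not name the annotation or the filters. Per the file headers, the authors deposited FPKM for each library. The deposited table also holds a mean normalized count (a depth-scaled signal per row), and, from the authors, a p-value, an FDR (missing in 4509 rows) and a log2 fold change.

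Each symbol was represented by its row of highest mean normalized count. Symbols at 1 FPKM or more in 3 or more libraries were tested on log2(FPKM + 1), which understates changes of low genes, with limma 3.58.1 in R 4.3.3 (intensity trend, group as the only term, Benjamini-Hochberg adjustment over 9359 genes). "Rose" and "fell" mean an adjusted p under 0.05. Ratios of means carry no pseudocount. Multiplying FPKM by the row's mean normalized count over its mean FPKM and dividing by a step per library gave whole reads for 100% of values, within 0.001 of a read, and these served limma's voom. Read ranges cover counting error only. The script was tested on simulated data.

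The rule for names takes called members, the 2 most abundant tested members of a class, non-overlapping members whose log2 fold change was 0.5 or more in size, and up to 4 called genes of a list outside the members. Members and lists were chosen with earlier results of these data known. Gene positions are from GENCODE M21 (GRCm38, the mm10 assembly). One member below the FPKM minimum is not reported here by name.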

Additional observations from a re-analysis of the deposited data

How the results depend on the processing

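Of the 5 members that rose, 5 also did so with no filter on low values, with a pseudocount of 0.1 or 5 and with every row as a feature, and 4 with quantile normalization. The count was 1 with library totals (Lama5) and 11 by the authors' deposited FDR, and it ran from 2 to 11 with 1 library left out. The count of members that fell was 0 in each fit and 1 by the authors' deposited FDR. The median over tested members ran from 0.13 with a pseudocount of 5 to 0.38 without HC-1. Among genes of the matrix pathway outside the members, 10 rose and 9 fell as reported. With library totals these counts were 6 and 4, with voom 17 and 10, and by the authors' deposited FDR 18 and 11. With 1 library left out they ran from 4 to 17 and from 3 to 8. Of all genes tested, 11.2% rose and 9.26% fell with voom. By the authors' deposited FDR the shares were 11.5% and 9.43% of the symbols with an FDR there. Over all genes, 900 rose and 785 fell as reported, 353 and 170 with library totals, and 284 to 961 and 220 to 812 with 1 library left out.

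Of 736 log2 fold changes recomputed for 53 named genes, 640 kept their direction and their side of the threshold, 70 lost a call, 16 gained one and 10 changed sign. The changes of sign were those of uncalled genes near 0: Ncan (0.0279 with quantile normalization, 0.016 with library totals, and -0.11 to 0.10 with 1 library left out), Lum (-0.20 to 0.17) and Sparcl1 (-0.23 to 0.36). The cause was not tested. No paired analysis was possible because the columns carry no replicate numbers of the labels.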

Other observations

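The table gives 6 members more than 1 row, and those of Agrn had estimates of opposite sign, none of which passed. The row used in the report (ENSMUST00000180572, protein coding, 36 exons) had 32.0, 30.5 and 26.9 FPKM in the WT libraries against 40.8, 33.4 and 40.0 FPKM in the cKO libraries. A row of the transcript ENSMUST00000181062, annotated as a retained intron, had 1.94, 3.04 and 2.47 FPKM in WT against 1.37, 2.10 and 1.52 in cKO. With every row fitted as its own feature, limma's log2 fold changes were 0.34 (SE 0.10, adjusted p = 0.0581) and -0.39 (SE 0.16, adjusted p = 0.146). The difference between the rows was not tested. For Fn1, the row of a retained-intron transcript (ENSMUST00000189160) had 2.71, 3.93 and 3.19 FPKM in WT against 4.92, 3.95 and 4.75 in cKO. Its groups did not overlap, whereas those of the coding row did, and neither row passed.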
